A study of Homo sapiens with 8 samples.

Results

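The genes described are 4 simple keratins (KRT8, KRT18, KRT7 and KRT19), the surface proteins EPCAM, PROM1 and CD24, the transcription factor SOX9 and the secreted ligand SPP1. These 9 genes were taken by symbol from the 58206 gene identifiers of the count table, as genes used to mark bile duct cells and liver progenitors together with the keratins of simple epithelia, and they were chosen by name with the counts of both groups, and the departure of replicate 1 labelled Axin1+ from its fellows, already known. The libraries are RNA-seq of Alexander1, an established epithelial line from a human hepatocellular carcinoma. In 4 libraries the genotype is given as wt (Axin1 -), the line as obtained, whose Axin1 lacks the stretch that binds the kinase GSK3 and whose canonical Wnt signalling is, according to the series record, permanently active. The other 4 are labelled Axin1+, a stable derivative in which full-length Axin1 was put back from a plasmid. A retroviral transfer followed by hygromycin B selection of clones is written in the record of every library, the wt ones included, and how many clones the derivative represents is not said. All cells grew in DMEM with fetal bovine serum, glutamine and antibiotics.

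Keratins are the intermediate filaments of epithelial cells and form only as pairs of 1 acidic (type I) and 1 basic (type II) chain. Hepatocytes make the pair KRT8 and KRT18 almost alone, whereas bile duct cells add KRT7 and KRT19, and liver progenitors and some hepatocellular carcinomas carry the ductal keratins together with SOX9, EPCAM, PROM1 (CD133), CD24 or osteopontin, the product of SPP1. In the liver SOX9 acts in bile duct formation downstream of Notch signalling.

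The 4 keratin messages resemble each other, which matters for how reads are assigned to them. Over the aligned reading frames of the principal transcripts in GENCODE 29, the type II chains KRT8 and KRT7 were identical at 72.9% of bases and the type I chains KRT18 and KRT19 at 62.7%, against 56.2% for the partners KRT8 and KRT18. The reading frames encode 483 residues for KRT8, 469 for KRT7, 430 for KRT18 and 400 for KRT19. Despite the likeness, stretches of 50 bases that also occur in transcripts of another gene were few in KRT19, at 1.64%. They made up 35.9% in KRT18, 16.2% in KRT8 and 10.7% in KRT7, where nearly all of them belonged to the antisense gene KRT7-AS. For KRT18 the gene sharing the most was KRT8 itself. The genes of KRT8 and KRT18 overlap head to head on chromosome 12, where they share 525 exonic bases on opposite strands. The use of strand in counting is not given in the sources used here, so reads from those bases cannot be told apart between the pair, and KRT8 and KRT18 counts are uncertain to that extent.

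Upstream sequence is shown for SPP1 and CD24, the only genes described with a sequence window that reached before the start of the annotated gene. It is the part of the RefSeq promoter window (GRCh38.p14) that lies before the first annotated transcript start in GENCODE 29, for SPP1 on the plus strand at chr4:87975464-87975649 and for CD24 on the minus strand at chr6:106975628-106975877.
SPP1: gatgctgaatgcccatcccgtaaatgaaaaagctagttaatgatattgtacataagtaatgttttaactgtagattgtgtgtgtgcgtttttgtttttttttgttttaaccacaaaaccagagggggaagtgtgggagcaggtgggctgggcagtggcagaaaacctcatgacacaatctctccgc
CD24: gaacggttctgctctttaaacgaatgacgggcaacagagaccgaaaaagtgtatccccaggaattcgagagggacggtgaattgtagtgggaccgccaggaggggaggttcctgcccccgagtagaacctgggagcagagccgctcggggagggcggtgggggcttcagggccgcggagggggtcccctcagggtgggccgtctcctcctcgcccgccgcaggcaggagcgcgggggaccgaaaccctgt
The CD24 stretch is rich in G and C, at 65.6%, and the SPP1 stretch holds 41.9%. Both strands were searched for the TCF/LEF letters CTTTGAT and CTTTGAA and the SOX letters ACAAAG, none of which contains another, and 0 matches were found in either stretch, shown in lower case throughout. Among 35116 RefSeq windows of 250 bases, CTTTGAT occurred in 2.3%, CTTTGAA in 3.8% and ACAAAG in 13.7%. Sequence windows were matched for 4 of the 9 genes, the others being PROM1 and KRT8. Of their windows, 1 of 4 for PROM1 held CTTTGAT and the single one for KRT8 held ACAAAG. Both further CD24 windows, from starts inside the annotated gene, also held ACAAAG.

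Libraries held between 11232951 and 15263761 counts in the wt group and between 12372436 and 26400782 in the group labelled Axin1+, so that 3 counts corresponded to between 0.108 and 0.267 CPM, a count over the TMM-scaled total of its library. AXIN1 itself read 47.4 to 55.3 CPM in wt and 37.7 to 48.2 CPM in the libraries labelled Axin1+ (log2 fold change -0.21, SE 0.12, adjusted p = 0.267 in edgeR's quasi-likelihood test with Benjamini-Hochberg adjustment), so its message does not tell the labels apart and every direction given rests on the labels. The libraries numbered 1 stood apart for some of the genes described, and results that rest on them are given with and without them. Of 12 hepatocyte markers 11 passed the expression filter, with a summed level of 21766 to 26636 CPM in wt and 17021 to 22178 CPM in the libraries labelled Axin1+. Most of that sum was SERPINA1, at 14811 to 17644 and 8943 to 11616 CPM, while TTR read 1.42 to 5.35 and 4.81 to 21.2 CPM. The list did not move together: FGB read 688 to 916 and 2257 to 3503 CPM, and APOA2 1049 to 1448 and 189 to 424 CPM. Of 8 cholangiocyte markers 6 passed, with SCTR, the secretin receptor, at 0 counts in every library. The fibroblast markers COL1A2, DCN and PDGFRA, the endothelial markers KDR, TEK and CLDN5 and the leukocyte markers PTPRC and CD3E were at 3 counts or fewer in every library. Of 7 fibroblast markers 2 passed the filter. COL1A1 read 0.609 to 2.05 CPM in wt and 0.991 to 3.91 CPM in the libraries labelled Axin1+, and PDGFRB 0.801 to 2.29 and 0.0493 to 0.430 CPM. The summed fibroblast list stood at 2.71 to 3.22 CPM in wt and 1.23 to 4.63 CPM in the libraries labelled Axin1+. The summed leukocyte list stood at 422 to 949 CPM in wt and 672 to 919.7 CPM in the libraries labelled Axin1+, nearly all of it the lysozyme gene LYZ at 421 to 949 and 672 to 919.4 CPM. The summed endothelial list stood at 4.58 to 6.95 CPM in wt and 34.1 to 58.6 CPM in the libraries labelled Axin1+, nearly all of it PECAM1. The part of any of these lists in the results was not tested.

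KRT8 and KRT18, the hepatocyte pair, were by far the most abundant of the genes described and lay at the 99.5 to 99.9 percentile of all tested genes in every library. KRT8 (ENSG00000170421, chromosome 12, 52897187 to 52949954, minus strand of GRCh38) read 2564, 2713, 2272 and 2411 CPM in wt replicates 1 to 4. In replicates 1 to 4 labelled Axin1+ it read 2694, 2509.55, 2289 and 1837 CPM. The ranges overlapped, with replicate 4 labelled Axin1+ the lowest of the 8 libraries. Mean levels (± SD, n = 4) were 2490.2 ± 191 CPM in wt and 2332 ± 369.8 CPM in the libraries labelled Axin1+. The log2 fold change, labelled Axin1+ over wt as everywhere here, was -0.09 (SE 0.15, 95% interval -0.43 to 0.24). In bulk RNA such as this, fewer cells making a message and less message per cell cannot be told apart.

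KRT18 (ENSG00000111057, chromosome 12, 52948871 to 52952901, plus strand), the type I partner, read 1872, 2262, 1711 and 1933 CPM in wt and 2176, 2029.7, 1657 and 1398 CPM in the libraries labelled Axin1+. Again the groups overlapped and replicate 4 labelled Axin1+ was lowest. The log2 fold change was -0.10 (SE 0.17, 95% interval -0.47 to 0.28). Without replicate 4 labelled Axin1+ the values of both genes were 0.01, so the small negative sign of each rested on that library. Per kilobase of principal transcript, the level of KRT8 divided by that of KRT18 stayed between 0.882 and 1.01 in the 8 libraries. The pair took between 96.5% and 98.4% of the CPM of the 55 keratin genes in the table. Reads given to pseudogenes were few, taken as a share of the counts of the gene and its pseudogenes together. The 50 annotated KRT8 pseudogenes held between 0.219% and 0.411% of that sum in a library, and 67 KRT18 pseudogenes between 0.146% and 0.322%.

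KRT7 (ENSG00000135480, chromosome 12, 52232520 to 52252186, plus strand), the type II keratin of ducts, was low, at 12.4, 2.78, 3.12 and 1.86 CPM in wt and 5.70, 5.12, 4.44 and 3.12 CPM in the libraries labelled Axin1+. These values rested on 26 to 159 counts a library. In wt, replicate 1 stood far above its fellows and was the highest of all 8. The remaining wt libraries lay at or below the libraries labelled Axin1+, with wt replicate 3 and replicate 4 labelled Axin1+ level at 3.12 CPM. The log2 fold change was -0.12 (SE 0.52, 95% interval -1.25 to 1.01). Without wt replicate 1 it was 0.83, so the sign for KRT7 turned without that library. It was 0.03 without replicate 4 labelled Axin1+.

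KRT19 (ENSG00000171345, chromosome 17, 41523617 to 41528308, minus strand), the type I keratin that pairs with KRT7 or KRT8 in ducts, had the most uneven counts of the keratins. In wt the libraries held 190, 59, 28 and 18 counts, or 16.9, 3.99, 2.49 and 1.29 CPM. In the libraries labelled Axin1+ they held 959, 2, 29 and 2 counts, or 34.4, 0.165, 1.43 and 0.0781 CPM. Replicate 1 was highest in both groups, and apart from it the libraries labelled Axin1+ held less KRT19 than 2 of the 3 remaining wt libraries. Replicates 2 and 4 labelled Axin1+ were at or below 3 counts, the level taken here as the floor. Mean levels (± SD, n = 4) were 6.17 ± 7.24 CPM in wt and 9.02 ± 16.9 CPM in the libraries labelled Axin1+, and the log2 fold change was 0.59 (SE 1.31, 95% interval -2.29 to 3.48). Without replicate 1 labelled Axin1+ the value was -3.40, and without both libraries numbered 1, an alternative chosen after the values were seen, it was -2.17. Both of these values were past the adjusted p threshold of 0.05 in edgeR, as lower in the libraries labelled Axin1+, so the direction for KRT19 depended on 1 library. It also depended on the model. With all 8 libraries the value was -1.64 in limma-voom and -1.14 with the replicate number as a block, neither past the threshold. The 5 annotated KRT19 pseudogenes held 0 counts in every library. Among the 4 keratins, KRT19 made up 0.502% of the level per kilobase in wt replicate 1, 0.920% in replicate 1 labelled Axin1+ and 0.00319% in replicate 4 labelled Axin1+, so it was a minor part of the keratin message even in the libraries where it was highest.

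**Figure D1:**
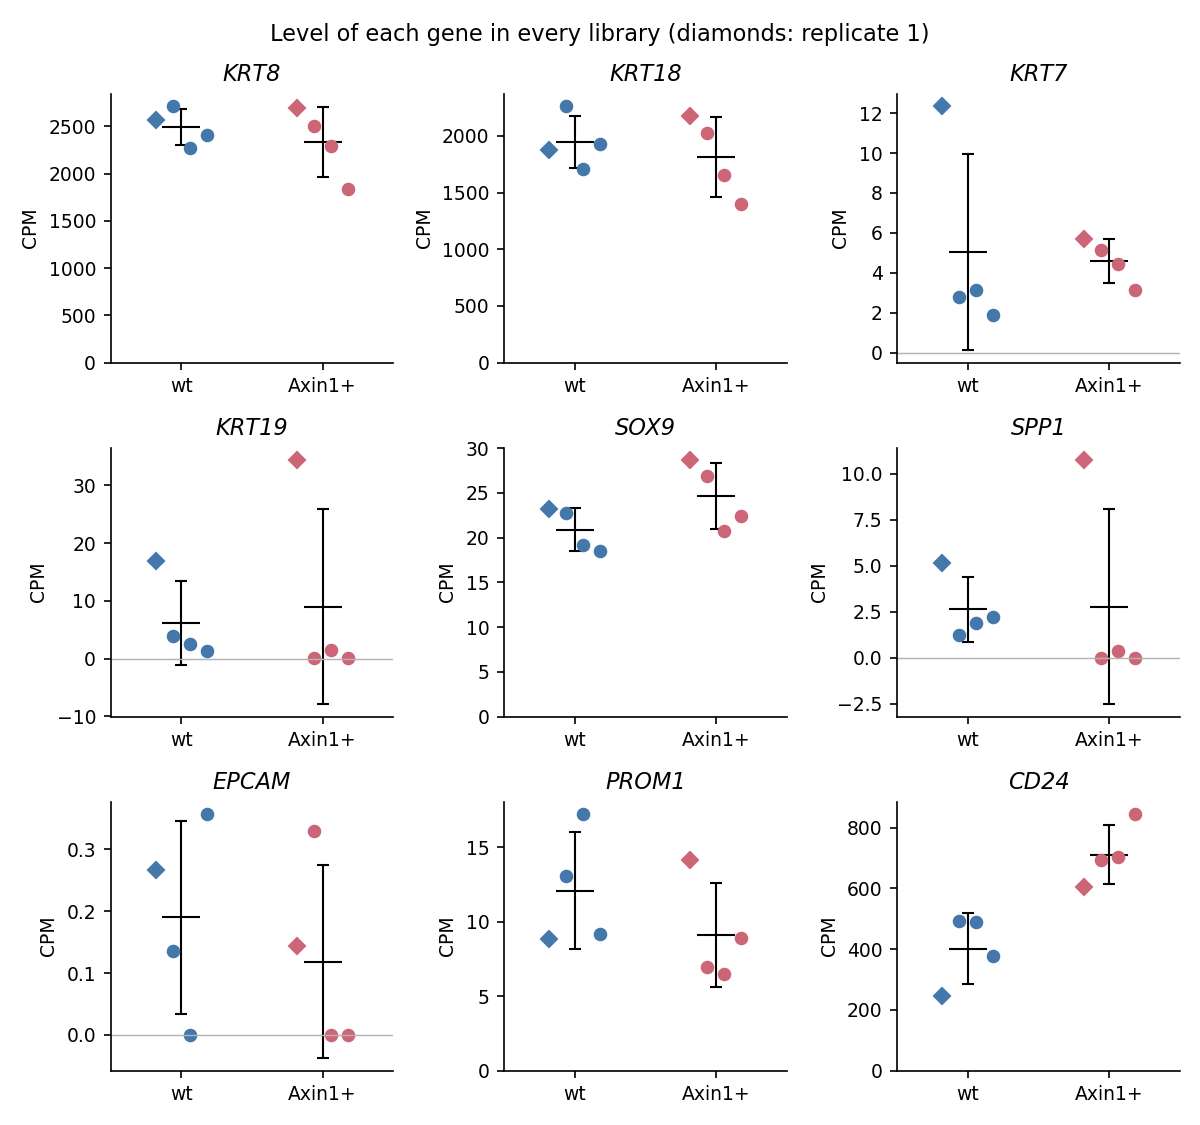
Level of each gene in every library, in CPM on linear axes that differ between panels, for wt (blue) and Axin1+ (red) libraries, with replicate 1 of each group as a diamond and the mean and SD (n = 4) in black. KRT19 and SPP1 are highest in replicate 1 of both groups, at 34.4 CPM and 10.8 CPM in the library labelled Axin1+, and in CD24 every red point lies above every blue point.

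SPP1 (ENSG00000118785, chromosome 4, 87975650 to 87983426, plus strand) encodes osteopontin, a secreted phosphoprotein that binds integrins and CD44. Its libraries held 58, 18, 21 and 31 counts in wt, or 5.16, 1.22, 1.87 and 2.22 CPM. Those labelled Axin1+ held 300, 0, 7 and 0 counts, and the first of these corresponded to 10.8 CPM and the third to 0.345 CPM. A count of 0 allowed up to 0.248 CPM in replicate 2 and 0.117 CPM in replicate 4 labelled Axin1+, from counting error alone. As for KRT19, replicate 1 was the highest of each group, and the other libraries labelled Axin1+ all lay below every wt library. The log2 fold change over all libraries was 0.16 (SE 1.22, 95% interval -2.53 to 2.85). It was -4.33 without replicate 1 labelled Axin1+ and -3.78 without both libraries numbered 1, both past the adjusted p threshold of 0.05 in edgeR as lower in the libraries labelled Axin1+, so the sign turned without that library. The sign of the small value over all libraries also turned without wt replicate 2, at -0.10. With all 8 libraries it turned in limma-voom, at -3.04, and with the replicate number as a block, at -1.94, neither past the threshold. Fitted values of genes with counts of 0 depend on the prior count and are no bound on the fold.

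SOX9 (ENSG00000125398, chromosome 17, 72121020 to 72126420, plus strand) was steady across the libraries. It read 23.2, 22.7, 19.2 and 18.5 CPM in wt and 28.6, 26.8, 20.7 and 22.4 CPM in the libraries labelled Axin1+, on 215 to 798 counts. The groups overlapped, although the highest values were 2 libraries labelled Axin1+. The log2 fold change was 0.24 (SE 0.15, 95% interval -0.10 to 0.58), and it stayed between 0.15 and 0.31 when each library was left out in turn. No 50-base stretch of SOX9 or of SPP1 occurred in a transcript of another gene, the share being 0% for both.

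EPCAM (ENSG00000119888, chromosome 2, 47345158 to 47387601, plus strand), an adhesion molecule of most epithelia that adult hepatocytes lack, was close to absent from the counts. The libraries held 3, 2, 0 and 5 counts in wt and 4, 4, 0 and 0 counts in the group labelled Axin1+. EPCAM was the 1 gene described that did not pass the expression filter, and no fold is given for it. The counts of 0 allowed up to 0.267 CPM in wt replicate 3, 0.148 CPM in replicate 3 labelled Axin1+ and 0.117 CPM in replicate 4 labelled Axin1+.

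PROM1 (ENSG00000007062, chromosome 4, 15963076 to 16084378, minus strand) encodes prominin-1, or CD133, a pentaspan protein of membrane protrusions. It read 8.81, 13.1, 17.2 and 9.16 CPM in wt and 14.1, 6.93, 6.50 and 8.90 CPM in the libraries labelled Axin1+. Replicate 1 was the highest of the group labelled Axin1+ and the lowest of wt, so that the groups overlapped. The log2 fold change was -0.39 (SE 0.29, 95% interval -1.04 to 0.25). It was -0.80 without both libraries numbered 1 and -0.69 without replicate 1 labelled Axin1+ alone, with the same sign under every alternative.

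CD24 (ENSG00000272398, chromosome 6, 106969831 to 106975627, minus strand), a small glycosylphosphatidylinositol-anchored protein that binds P-selectin and Siglec-10, was the gene of the 9 whose groups did not overlap. It read 245, 491, 489.8 and 377 CPM in wt and 606, 692, 703 and 844 CPM in the libraries labelled Axin1+. Replicate 1 was the lowest of each group, and the lowest library labelled Axin1+ still lay above the highest of wt. Mean levels (± SD, n = 4) were 401 ± 117 CPM in wt and 711 ± 98.5 CPM in the libraries labelled Axin1+, which is 1.77-fold higher by the fit, or 0.83 on the log2 scale (SE 0.21, 95% interval 0.36 to 1.30). The value stayed between 0.65 and 0.94 when each library was left out in turn. The 3 annotated CD24 pseudogenes held at most 0.114% of the summed counts of CD24 and these pseudogenes in a library. CD24 was past an adjusted p under 0.05, but not once wt replicate 4, replicate 3 labelled Axin1+ or replicate 4 labelled Axin1+ was left out, at log2 fold changes of 0.80, 0.83 and 0.74.

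Of the 8 genes that passed the filter, 1 was past an adjusted p under 0.05 (edgeR, Benjamini-Hochberg over 14289 genes), in the direction higher in libraries labelled Axin1+. Among all 14289 tested genes 19.2% were past that threshold, 10.4% higher and 8.77% lower in the libraries labelled Axin1+. The groups did not overlap for 1 of the 9, CD24, against 23.9% of all tested genes. The median log2 fold change of the 8 genes was 0.04 and that of all tested genes 0.00. Because the 9 were picked with this contrast known, these shares are a description and nothing is read from them.

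**Figure D2:**
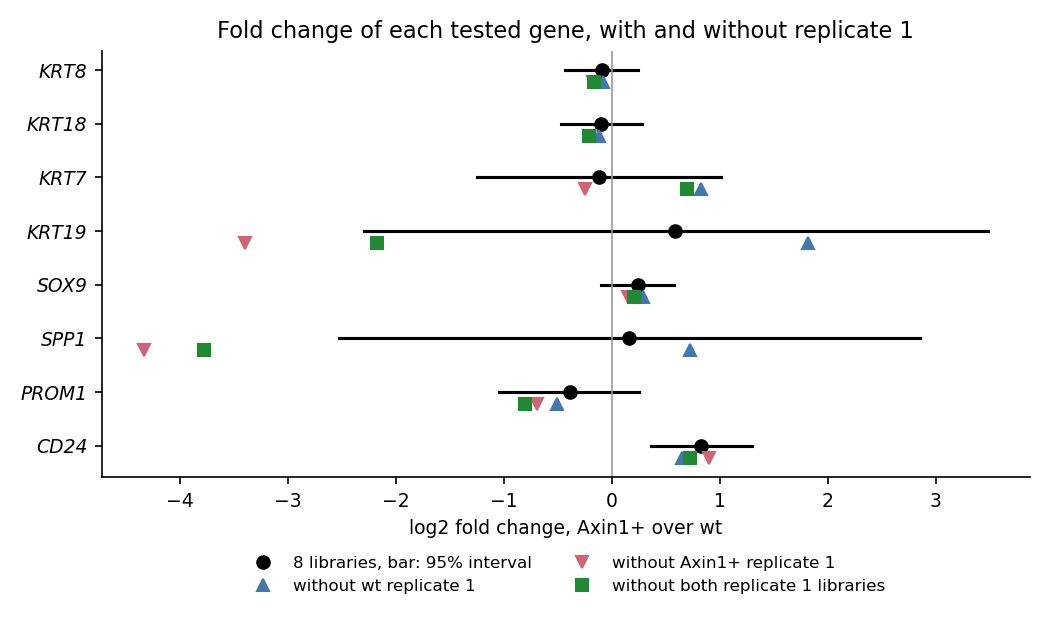
Log2 fold change of the 8 genes that passed the filter, libraries labelled Axin1+ over wt (x axis), with all 8 libraries (black circle, bar for the 95% interval) and without wt replicate 1, without Axin1+ replicate 1 or without both (coloured marks). KRT19 and SPP1 move from 0.59 and 0.16 to -3.40 and -4.33 without replicate 1 labelled Axin1+, KRT7 moves to 0.83 without wt replicate 1, and CD24 keeps to the right of 0.

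Levels between genes were compared as mean CPM per kilobase of principal transcript. In wt the order was KRT18 at 1245, KRT8 at 1171, CD24 at 159, SOX9 at 5.31, KRT19 at 4.44, PROM1 at 3.01, KRT7 at 2.87, SPP1 at 1.66 and EPCAM at 0.110. The levels fell into 3 tiers, the hepatocyte keratins, then CD24, then the remaining genes at the level of a few CPM per kilobase or less. Within the lowest tier of wt, the ranges of neighbours from SOX9 down to SPP1 overlapped, and only EPCAM lay below the range of its neighbour. KRT18 and KRT8 overlapped each other, and both lay above every CD24 value. In the libraries labelled Axin1+ the order was KRT18 at 1162, KRT8 at 1097, CD24 at 283, KRT19 at 6.49, SOX9 at 6.26, KRT7 at 2.62, PROM1 at 2.27, SPP1 at 1.76 and EPCAM at 0.0687. The rank of KRT19 above SOX9 there came from replicate 1, since the median of KRT19 was 0.573 and that of SOX9 6.26. Ranges of neighbours overlapped between KRT18 and KRT8, KRT19 and SOX9, KRT7 and PROM1, PROM1 and SPP1, and SPP1 and EPCAM.

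KRT19 and SPP1 shared a pattern over the libraries. In both genes replicate 1 of wt and replicate 1 labelled Axin1+ stood at least 2-fold above all other libraries of their own group. Of the 14289 tested genes, 42 had that pattern, or 0.294%, KRT19 and SPP1 among them. The pattern was chosen after the values were seen, and its cause was not tested.

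The genes whose log2 CPM profile over the 8 libraries lay nearest were found by the root mean square difference of centred profiles among 13474 candidates. The genes described were left out of the candidates, so nearest here means nearest outside them, and a gene described may lie nearer still. By the same measure KRT19 and SPP1 lay nearer to each other than to any candidate, and KRT18 lay nearer to KRT8. For KRT19 the nearest was CAPN8, a calpain protease, at a difference of 0.960, followed by SLC38A3 at 1.21, against a spread of KRT19 itself of 2.42 (SD of log2 CPM). CAPN8 read 9.88, 1.29, 1.07 and 0.716 CPM in wt and 4.23, 0.165, 0.246 and 0.0781 CPM in the libraries labelled Axin1+, so replicate 1 was again the highest of each group. For SPP1 the nearest were COL7A1, the collagen of anchoring fibrils, at 0.848, and SLC38A3 at 0.885. COL7A1 read 117, 53.1, 55.9 and 67.8 CPM in wt and 96.0, 7.84, 7.29 and 4.76 CPM in the libraries labelled Axin1+, high throughout wt and in replicate 1 labelled Axin1+ and low in the other 3. For KRT7 the nearest were LMTK3 at 0.190 and DOK3 at 0.213. KRT8 and KRT18 had the same nearest candidate, ARHGEF19, at 0.0538 and 0.0722, followed by PNKD for KRT8 and PLD2 for KRT18. For SOX9 they were NCOA7 at 0.0615 and CTBP2 at 0.0816, and for PROM1 KPNA3 at 0.151 and LRPPRC at 0.164. For CD24 the nearest were TMEM144 at 0.105 and CHRNA5 at 0.117. Such likeness over 8 libraries is a description and carries no test.

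**Figure D3:**
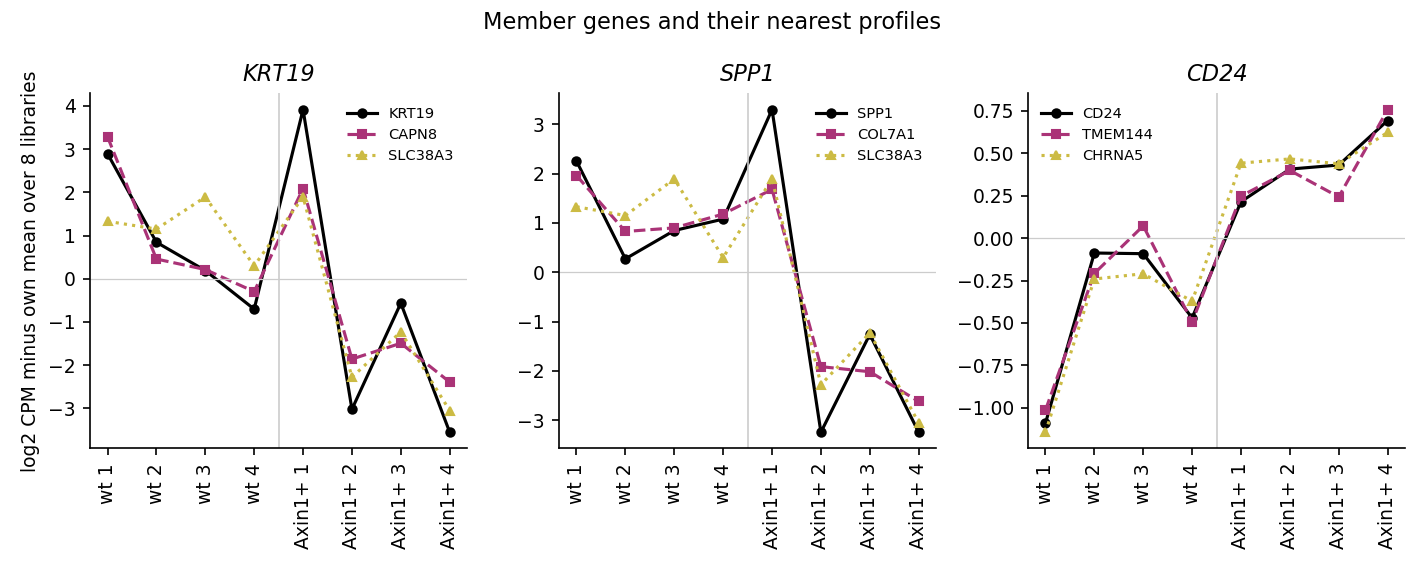
Centred log2 CPM (y axis, each gene minus its own mean over 8 libraries) of KRT19, SPP1 and CD24 (black) and of the 2 candidate genes nearest to each, by library (x axis), where lines join the values of a gene and the libraries have no order within a group. The genes described were not candidates. Replicate 1 is the highest library of each group for KRT19, SPP1, CAPN8 and COL7A1, with KRT19 and SPP1 highest in the one labelled Axin1+ and CAPN8 and COL7A1 in that of wt, and CD24 is lowest in wt replicate 1 with TMEM144 and CHRNA5.

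Position along the chromosome was looked at through the 20 tested genes on each side of each of the 9. The median log2 fold change of the 40 neighbours was 0.51 around KRT19, with 19 of the 40 past an adjusted p under 0.05, against 19.2% of all tested genes. Around CD24 it was 0.22 with 5 of 40, and around EPCAM -0.22 with 6 of 40. For the other 6 genes the medians lay between -0.10 and 0.11, with 5 to 8 of 40. The surroundings of KRT19 thus read higher in the libraries labelled Axin1+ at the median than those of the other genes described, a difference that was not tested.

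The remaining keratins were read through a list of 51 KRT genes, of which 21 had no count in any library and 8 were tested. Of the 8, 3 rose, 1 fell and 4 did not pass, with a median log2 fold change of 1.01 against 0.00 for all genes. Thus 50% of the 8 were past an adjusted p under 0.05 in edgeR. Of all tested genes 19.2% were, 10.4% higher and 8.77% lower in the libraries labelled Axin1+. KRT20, a type I keratin of gut and urothelium, rose by 4.33 on the log2 scale (SE 0.52, edgeR adjusted p = 0.000423), with mean levels of 0.798 ± 0.299 CPM in wt and 16.4 ± 12.3 CPM in the libraries labelled Axin1+ (SD, n = 4). Its replicate 1 labelled Axin1+ read 34.8 CPM and the other 3 between 9.76 and 10.5 CPM, all above wt. KRT80, a type II keratin, rose by 2.44 on the log2 scale (edgeR adjusted p = 0.00733) and KRT23 fell by 2.17 (edgeR adjusted p = 0.000269), from 25.1 CPM to 5.63 CPM. KRT222 was the third that rose, by 1.44. Of 19 tested genes for proteins that link keratins or share the filament network, 4 rose and 2 fell (31.6% past the threshold), with a median of -0.11. DSG2, a desmosomal cadherin to which keratin filaments are tied, had 7 counts over the 4 wt libraries and 572 over those labelled Axin1+, a ratio of 48.7 (95% counting interval 23.5 to 122). NES, encoding nestin, rose by 3.40 (edgeR adjusted p = 0.000288), and VIM, the vimentin of mesenchymal cells, fell by 1.03 (edgeR adjusted p = 0.00114). Plakoglobin (JUP) and the kinase CSNK1A1 also rose, by 1.07 and 0.75, and the plakophilin PKP3 fell by 1.78. DSP and PLEC, which anchor keratins, read -0.35 and 0.04 and did not pass. Without wt replicate 2 the number of linker genes past the threshold was 3, where that of all genes was 1508, against 2738 with every library.

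**Figure D4:**
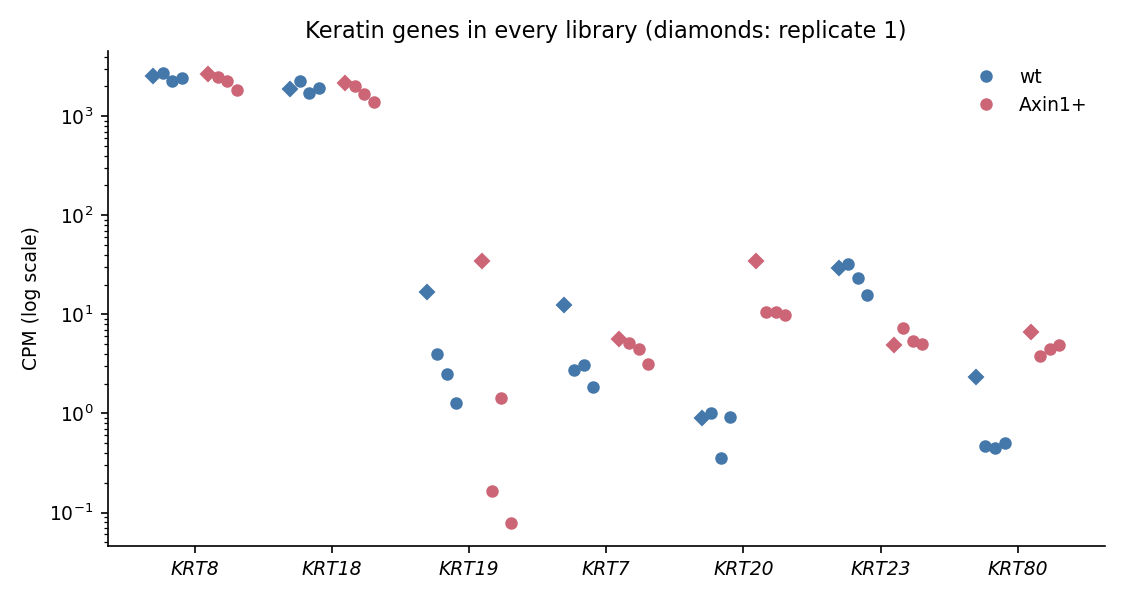
CPM on a log axis of the 4 keratins described and of KRT20, KRT23 and KRT80 in every wt (blue) and Axin1+ (red) library, replicate 1 as a diamond. KRT8 and KRT18 lie above all other genes shown, KRT19 reaches from 0.0781 to 34.4 CPM, and for KRT20, KRT23 and KRT80 the colours do not overlap.

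The other genes that mark ducts or progenitors were listed apart from the 9, with earlier results of these data known. Of 15 tested bile duct genes 1 rose and 3 fell, with a median of -0.15. Thus 26.7% of them were past the threshold, against 19.2% of all tested genes (10.4% higher and 8.77% lower in the libraries labelled Axin1+). CFTR, the chloride channel of duct cells, rose by 2.54 on the log2 scale (SE 0.39, edgeR adjusted p = 0.00173), with mean levels of 1.96 ± 1.09 CPM in wt and 11.5 ± 2.89 CPM in the libraries labelled Axin1+ (SD, n = 4). ONECUT2, a liver transcription factor, fell by 1.54 (edgeR adjusted p = 0.000598), the anion exchanger SLC4A2 fell by 0.66 (edgeR adjusted p = 0.0102) and the trefoil factor TFF1 fell by 2.17. Of 14 tested progenitor genes 4 rose and 5 fell (64.3% past the threshold), and the median was -0.01. As the lists were made with earlier results known, these shares are a description. The oncofetal GPC3 fell by 2.12 (edgeR adjusted p = 1.53e-05), LGR5, a stem cell receptor and Wnt target, fell by 5.49 (edgeR adjusted p = 0.000294) and SALL4 fell by 1.41 (edgeR adjusted p = 0.00135), with ABCG2 and TNFRSF12A the others that fell. LGR5 read 4.81 to 18.5 CPM in wt and 0.646, 0, 0.0986 and 0.234 CPM in replicates 1 to 4 labelled Axin1+. Replicates 2 and 3 labelled Axin1+ were at or below 3 counts, so the fitted size for LGR5 depends on the prior count and is no bound on the fold. CD44, ITGA6, ICAM1 and ALDH1A1 rose, by 3.38, 1.66, 0.62 and 0.83. Both lists thus split in direction. Without wt replicate 1 the number of duct genes past the threshold was 7, where 24.1% of all tested genes passed.

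Genes that act with the proteins described were listed by partner. Of 20 tested genes of the Notch pathway and the SOX family, with which SOX9 acts, 3 rose, 3 fell and the median was -0.09. Thus 30% of them were past the threshold, against 19.2% of all tested genes (10.4% higher and 8.77% lower in the libraries labelled Axin1+). SOX8, of the same subfamily as SOX9, had 6 counts in wt and 86 in the libraries labelled Axin1+, a ratio of 8.54 (95% counting interval 3.77 to 23.9). SOX12 fell by 0.61 (edgeR adjusted p = 0.00703), SOX4 fell by 0.60, and the receptor NOTCH3 fell by 1.92 (edgeR adjusted p = 0.0169), while MAML1 and DLL4 rose by 0.57 and 0.66. NOTCH3 was not past the threshold without replicate 3 or replicate 4 labelled Axin1+ (-1.73 in each case). The number past it in this list was 3 without replicate 3 labelled Axin1+ or wt replicate 3. Of all genes 1531 and 2061 passed in those settings, against 2738 with every library. Of the 8 tested receptors, proteases and kinase linked to osteopontin, 3 rose and 1 fell (50% past the threshold), with a median of 0.14. CD44 rose by 3.38 on the log2 scale (SE 0.73, edgeR adjusted p = 0.0102), and in replicate 1 labelled Axin1+, where SPP1 was highest, it read 8.43 CPM against 1.13 to 2.56 CPM in the other 3. The integrin subunit ITGB1 rose by 1.11 (edgeR adjusted p = 0.0178), the protease MMP7 by 2.0, and thrombin (F2), which cleaves osteopontin, fell by 0.99 (edgeR adjusted p = 0.0122). Without replicate 4 labelled Axin1+ ITGB1 was not past the threshold, at 0.96, and 2 genes of this list were, where 1394 of all genes passed. Of 13 tested partners and processing enzymes of EPCAM (23.1% past the threshold), 3 rose, 0 fell (2 at an unadjusted p under 0.05) and the median was 0.41. They were the protease inhibitor SPINT2, up by 2.0 (edgeR adjusted p = 0.00304), the tetraspanin TSPAN8, up by 1.28 (edgeR adjusted p = 0.0102), and the gamma-secretase subunit NCSTN, up by 0.47 (edgeR adjusted p = 0.0145), all in cells with next to no EPCAM counts. NCSTN was not past the threshold without replicate 3 labelled Axin1+ or wt replicate 2, at 0.45 and 0.47, while 8 genes of this list passed without wt replicate 1, where 24.1% of all tested genes passed. Of 4 tested partners of CD24 and prominin, 0 passed in edgeR, DESeq2 or limma-voom, and 1 had an unadjusted p under 0.05 in edgeR. The kinases FYN, SRC and LYN read 0.83, 0.19 and 0.13, and HDAC6, which binds CD133, read 0.21, or 0.45 and past the threshold without wt replicate 1.

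**Figure D5:**
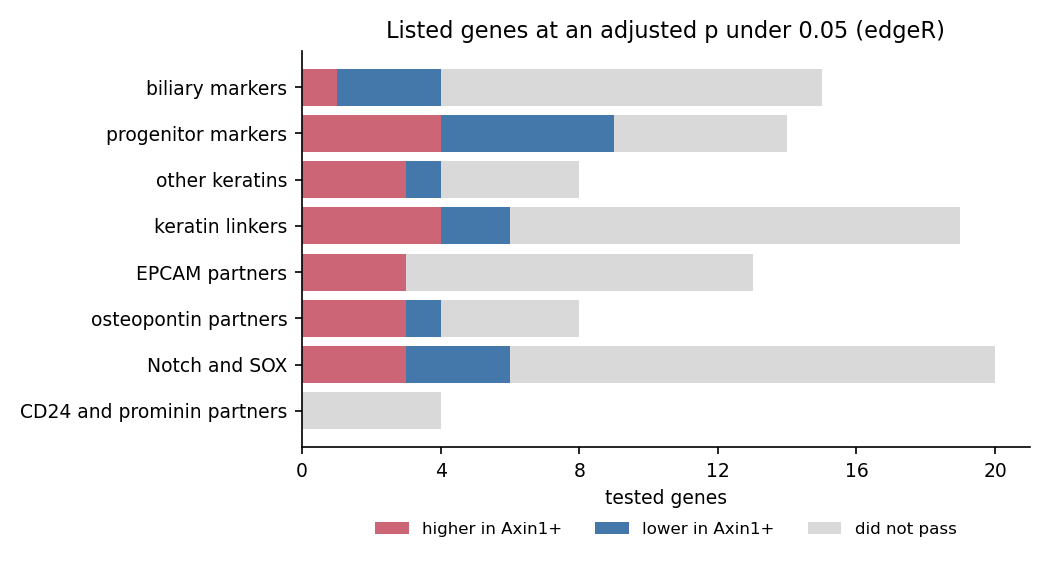
Number of tested genes in each companion list (x axis) that were higher (red) or lower (blue) in the libraries labelled Axin1+ at an adjusted p under 0.05 in edgeR, or did not pass (grey). The progenitor list has 4 higher and 5 lower of 14, the EPCAM partners 3 higher and 0 lower of 13, and the partners of CD24 and prominin 0 of 4. Of all tested genes, 10.4% were higher and 8.77% lower at that threshold.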

How the data were processed

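RNA of 8 Alexander1 libraries, 4 per group, was sequenced from mRNA kits with dual indexes, per the labels' protocols. The authors deposited whole-number counts per gene, not normalized. The submitters' processing notes name bcl2fastq, fastp 0.23.1, STAR 2.7.4 and GRCh38, and the counting program, annotation and use of strand are not given in the sources used here. Nothing says that libraries came from separate cultures, so p-values measure the spread between these libraries, which may be technical.

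The counts were fitted with edgeR 4.0.16 under R 4.3.3: filterByExpr (minimum count 10, minimum total 15), TMM scaling and the quasi-likelihood test without covariates, with Benjamini-Hochberg adjustment over 14289 genes and a threshold of 0.05. Alternatives were other scalings (RLE, upper quartile, total counts), other filters (none, a mean of at least 1 CPM), DESeq2 1.42.0, limma-voom (limma 3.58.1), the replicate number as a block and leaving out libraries. The fit was tested on simulated data. Loci and transcripts are from GENCODE 29, which held 57943 of the 58206 identifiers.

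The 9 genes and the companion lists were chosen with earlier results of these data known. By rule, the text names the 3 top genes of every list by p, and for each of the 9 genes that was tested the 2 genes outside the 9 with the nearest profile. Other genes past the threshold, and some that were not, were named after their values were seen. Intervals and limits for counts of 0 cover counting error only. Some genes and sequences are not reported here.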

Additional observations from a re-analysis of the deposited data

Results flagged for a closer look

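In 66 sets of 4 libraries (1 gene in 1 group), a single library lay far from the other 3 by Dixon's test at its 95% level in 10 cases. Chance gives about 5% of sets where genes are picked without their values known. Here they were picked with the departure of replicate 1 labelled Axin1+, or results of this contrast, known. The 10 cases are therefore a description and are not set against that rate. Among the 9 genes these were KRT7 in wt replicate 1 at 12.4 CPM, KRT19 in replicate 1 labelled Axin1+ at 34.4 CPM and SPP1 in the same library at 10.8 CPM. That library also stood apart for KRT20 at 34.8 CPM and for SALL4 at 19.2 CPM, each higher than in the other 3 libraries labelled Axin1+. In wt, replicate 1 stood apart for KRT80 at 2.31 CPM and for HDAC6 at 109 CPM. The remaining cases were KRT23 in replicate 2 labelled Axin1+ at 7.26 CPM, SPINT2 in replicate 4 labelled Axin1+ at 155.8 CPM, the lowest of its group, and SOX8 in wt replicate 2 at 0.203 CPM, which is 3 counts.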

How the results depend on the processing

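Of 134 alternative values for the 8 tested genes, 113 kept direction and side of the threshold, 3 lost the call (all CD24), 1 gained it in the same direction (PROM1, -0.80 without both libraries numbered 1) and 17 changed sign. Of those 17, 4 were also past the threshold, KRT19 and SPP1 without replicate 1 labelled Axin1+ and without both libraries numbered 1. These 4 are a description, since the departure of that library labelled Axin1+ was known when the genes were chosen. Of 407 values for the 24 named companion genes, 399 kept both, 6 lost the call, 2 gained it and 0 changed sign. KRT19 and SPP1 have no DESeq2 value, because their adjusted p was not given, and SOX8 has none with a mean of at least 1 CPM, a level it did not reach. With each library left out in turn, the genes past the threshold numbered 1394 to 3523, those of the 8 0 to 3, bile duct genes 3 to 7, progenitor genes 6 to 9, other keratins 3 to 5, linkers 3 to 8, EPCAM partners 2 to 8, osteopontin partners 2 to 4, Notch and SOX genes 3 to 8, and CD24 and prominin partners 0 to 1. Log2 fold changes then ran from -0.17 to 0.01 for KRT8, -0.20 to 0.01 for KRT18, -0.40 to 0.83 for KRT7, -3.40 to 1.82 for KRT19 and -4.33 to 0.72 for SPP1, which read -0.10 without wt replicate 2. KRT7 read 0.03 without replicate 4 labelled Axin1+.

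Leaving out both libraries numbered 1 was chosen after seeing the data. It placed 4623 genes past the threshold (32.3% of those tested), 4 of the 8, and 9 bile duct genes, 11 linkers, 9 EPCAM partners, 10 Notch and SOX genes and 1 CD24 or prominin partner, with KRT7 at 0.70, KRT18 at -0.21, KRT19 at -2.17 and SPP1 at -3.78. Without replicate 1 labelled Axin1+ alone, 3 of the 8 and 22% of tested genes passed. No expression filter gave 7 bile duct genes, 7 other keratins and 5 EPCAM partners, with 3196 genes past the threshold in all. DESeq2 gave 5 EPCAM partners, with 3504 in all, against 2738 in the main fit. Limma-voom gave KRT7 0.28, KRT19 -1.64 and SPP1 -3.04, and total counts gave KRT7 0.01. For these the cause was not tested.

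The deviations of same-numbered libraries from their group means had correlations across genes of -0.063, 0.007, -0.032 and 0.227, of which 1 was above 0.1, and the largest joined different numbers (0.448 for wt replicate 1 with replicate 2 labelled Axin1+). Of the wt libraries, 1 of 4 was most like that of its own number, so the numbers were not taken to pair the libraries. With the replicate number as a block, KRT7 read 0.22, KRT19 -1.14 and SPP1 -1.94. In that fit NCSTN at 0.48 was not past the threshold, and 3 Notch and SOX genes were, with 2033 genes past it in all.

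Low counts limit what can be said of KRT19, SPP1 and EPCAM, whose counts fell to 0 or 2 in some libraries. Replicate 4 labelled Axin1+, with 24135989 counts in total, was among these libraries.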
